A study of Danio rerio with 15 samples.

Results

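The genes that bring fatty acids into cells, bind and activate them and break them down were followed in zebrafish ventricles through anaemia and recovery from it. They were chosen by name: 74 of the 19260 genes with a single symbol on the array had a symbol beginning with acad, acox, acsl, acsbg, acot, cpt, hadh, ehhadh, ech, eci, etf, decr, fabp or slc27a. By role there were 6 uptake genes, 9 fatty acid binding protein genes, 10 acyl-CoA synthetase (activation) genes, 16 acyl-CoA thioesterase genes, 5 carnitine shuttle genes, 8 acyl-CoA dehydrogenase genes and 4 genes of electron transfer. A further 4 encode the hydratase, trifunctional and hydroxyacyl-CoA dehydrogenase steps, 6 are auxiliary enzymes of the enoyl-CoA group and 4 are peroxisomal. The remaining 2, etf1a and etf1b, encode translation termination factors that matched by symbol only, which leaves 72 genes. These were grouped by gene family, and not all need act on fatty acids. Examples are etfbkmt, a methyltransferase gene, and acad9, a gene of complex I assembly in mammals. Where a gene had more than 1 transcript cluster (a set of probes summarised together), the cluster with the highest mean was read, which applied to 7 of the 74.

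Fatty acids are the main fuel of the heart in mammals. They enter muscle cells with the help of fatty acid transport proteins (the slc27a family) and CD36, are carried in the cytosol by fatty acid binding proteins, and are joined to coenzyme A by acyl-CoA synthetases, a step that thioesterases undo. Long acyl chains cross into mitochondria as carnitine esters made by carnitine palmitoyltransferases, and are then shortened by repeated cycles of dehydrogenation, hydration, a second dehydrogenation and thiolysis, with peroxisomes handling very long and branched chains. Beta-oxidation needs oxygen, because its electrons pass, in part through electron transfer flavoprotein, to the respiratory chain.

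The study used 15 whole-transcript arrays of adult zebrafish ventricles, in 5 groups of 3. Treated fish were bathed in phenylhydrazine, a compound that lyses red blood cells and makes fish anaemic, for 30 min once in 3 days during 5 weeks. The first week's baths held 1.25 µg/mL and the later ones 2.5 µg/mL. They were sampled at the end of treatment or 2, 5 or 9 days later, and control fish went through the baths with the compound left out (0 µg/mL). Each array held RNA of 3 pooled ventricles, so differences between single fish are not seen. The sources used here do not state strain, sex or exact age. Control fish have no sampling day in the labels, so recovery and the day of sampling cannot be told apart.

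The samples carried the genes of heart muscle. Of 12 listed cardiomyocyte genes 11 were measured, all but vmhc. These 11 had a mean log2 signal of 12.03 to 12.13 on control arrays against 11.91 to 11.95 at the end of treatment, where 7 of them fell and 1 rose. Macrophage genes (6 of 6 rose, from 7.33 to 7.73 in control to 8.91 to 9.12), red cell genes (6 of 8 rose) and endothelial genes (6 of 7 rose) were higher at the end of treatment, while 3 of 7 epicardial and fibroblast genes fell. At 2, 5 and 9 days against control all 6 macrophage genes rose, as did 8, 7 and 5 of 8 red cell genes and 3, 3 and 2 of 7 endothelial genes. Over the same comparisons 7, 2 and 3 of 11 cardiomyocyte genes fell (1, 1 and 0 rose), and 2, 1 and 4 of 7 epicardial and fibroblast genes fell. From the end of treatment to 9 days 5 of 11 cardiomyocyte genes rose and 1 fell, and 4 of 6 macrophage genes fell. Lists for liver, intestine and glia had mean log2 signals between 2.96 and 3.87 on all 15 arrays. In such bulk samples fewer cells of a type and less RNA per cell cannot be told apart, and the part of these shifts in the results below was not tested. Median log2 signals lay between 4.02 and 4.09 on the 15 arrays, and their number limits the precision, with a median standard error of a difference of 0.15 over the 74 genes.

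Differences are log2 fold changes ± standard error from limma over 3 arrays per group, and the words rose and fell are kept for genes with a p-value under 0.05 after Benjamini-Hochberg adjustment over all 19260 genes. Among the 74 genes 22 differed between the 5 groups by the F test, or 29.7% against 26.9% of all genes, a share near the background. Without end of treatment replicate 3 this count was 14. In the 7 comparisons, 31 genes (41.9%) were called in at least 1, beside 34.6% of all genes, and 43 in none. The comparisons against control share the control arrays, and those against the end of treatment share its arrays, so their values are set side by side below and are not independent.

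At the end of treatment 15 of the 74 genes fell and 4 rose. The share called, 25.7%, was near the 24.2% of all genes, but its direction was not: 20.3% fell against 9.6% of all genes, and 5.41% rose against 14.6%. The shares of all genes were not matched for signal, and 49 of the 74 genes lay in the upper 50% of all genes by mean. The median log2 fold change of the 74 genes was -0.16, beside 0.01 for all genes, and 22 of the 74 had a value above 0. A lean towards lower values was not particular to them. Of the 11 cardiomyocyte genes 63.6% fell and 9.09% rose in this comparison, with a median of -0.23. The changes were small, between 1.21-fold and 2.59-fold among the 19 called genes, 8 of which passed 1.5-fold. In 14 of the 19 the call remained whichever of the 15 arrays was left out. The counts by role and by list given below for the end of treatment stand against the same shares of all genes, 14.6% higher and 9.6% lower, and rest on 4 to 20 genes each.

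**Figure D1:**
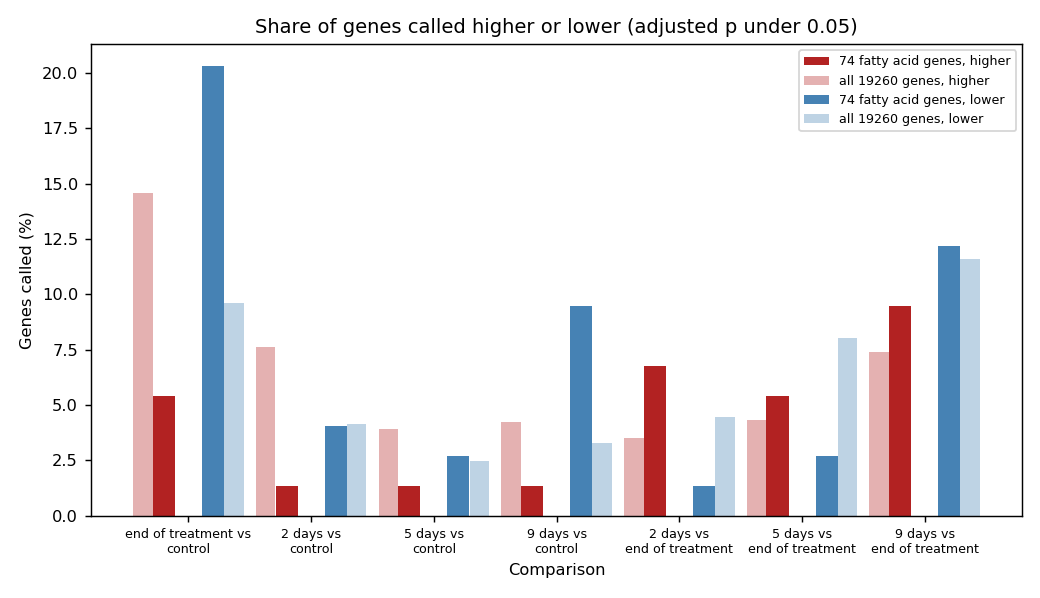
Share of genes called higher (red) or lower (blue) in each of the 7 comparisons, in percent, for the 74 fatty acid genes (solid bars) and for all 19260 genes (pale bars). At the end of treatment against control the solid blue bar (20.3%) stands above the pale one (9.6%) and the solid red bar (5.41%) below its pale one (14.6%).

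**Figure D2:**
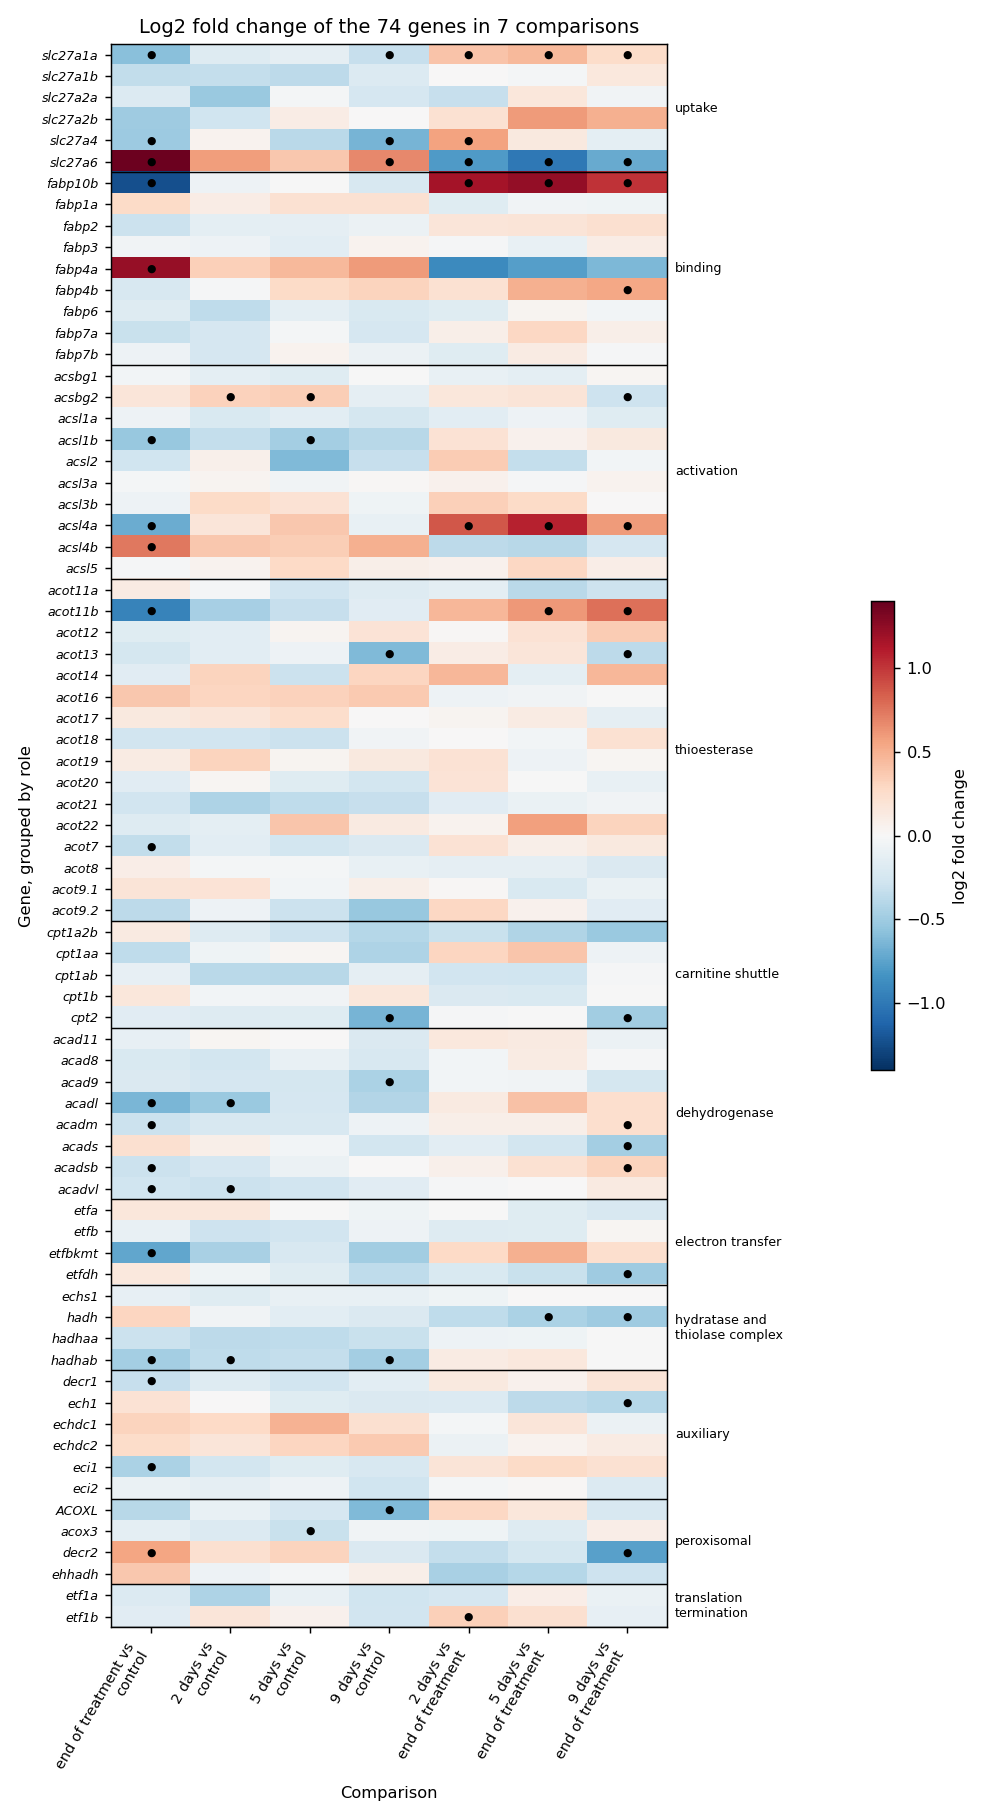
Log2 fold change of each of the 74 genes (rows, grouped by role) in the 7 comparisons (columns), on a colour scale from blue (lower) to red (higher), with a dot where the adjusted p was under 0.05. Dots in the first column fall on 15 genes that were lower and 4 that were higher.

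Uptake genes moved in opposite directions at the end of treatment, with 1 of 6 higher and 2 lower. The gene slc27a1a encodes fatty acid transport protein 1, which in mammals serves muscle and fat. Log2 signals of slc27a1a were 9.89, 9.98 and 10.05 in control fish, 9.51, 9.28 and 9.39 at the end of treatment, 9.74, 9.84 and 9.79 at 2 days, 9.81, 9.85 and 9.90 at 5 days and 9.72, 9.71 and 9.52 at 9 days. All 3 end-of-treatment arrays lay below every other array. It fell by 0.58 ± 0.08 on the log2 scale against control (1.5-fold, adjusted p = 3.11e-05).

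The related gene slc27a6, which encodes a transporter found in the human heart, moved in the opposite direction. Log2 signals of slc27a6 were 4.31, 4.82 and 5.16 in control fish, 6.24, 5.86 and 6.32 at the end of treatment, 5.48, 5.48 and 5.08 at 2 days, 5.08, 5.23 and 5.11 at 5 days and 5.43, 5.32 and 5.55 at 9 days. The 3 arrays of the end of treatment were the highest of the 15. Against control it rose by 1.37 ± 0.19 (2.59-fold, adjusted p = 3.68e-05), the largest fold change of the 74 genes in this comparison. A second cluster annotated to slc27a6 together with rpl22 and rack1 was not used.

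The third, slc27a4, encodes fatty acid transport protein 4. Log2 signals of slc27a4 were 7.12, 6.80 and 6.97 in control fish, 6.72, 6.49 and 6.15 at the end of treatment, 7.07, 6.86 and 7.12 at 2 days, 6.53, 6.46 and 6.76 at 5 days and 6.42, 6.47 and 6.05 at 9 days. Control and end-of-treatment arrays did not overlap, and the 2 day arrays overlapped the control range. It fell by 0.51 ± 0.15 at the end of treatment (adjusted p = 0.0184), a call lost without control replicate 1 (adjusted p = 0.0841) or end of treatment replicate 3 (0.11). The other 3 uptake genes were not called, with log2 fold changes from -0.50 to -0.19.

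Among the 9 binding protein genes 1 rose and 1 fell at the end of treatment. The gene fabp3, whose product is the main fatty acid binding protein of heart muscle in mammals, varied little: log2 signals of fabp3 were 12.83, 12.85 and 12.82 in control fish, and end-of-treatment arrays read 12.75, 12.81 and 12.80. Its difference was -0.05 ± 0.05 (95% interval -0.16 to 0.06, adjusted p = 0.577), and over all 15 arrays its signal stayed between 12.65 and 12.91.

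In contrast fabp4a, listed earlier as fabp11a and related to the binding protein of mammalian fat cells and macrophages, was higher. Log2 signals of fabp4a were 10.94, 9.79 and 10.66 in control fish, 11.48, 11.87 and 11.72 at the end of treatment, 10.05, 10.93 and 11.43 at 2 days, 11.21, 10.86 and 10.68 at 5 days and 10.93, 11.20 and 11.05 at 9 days. End-of-treatment arrays lay above all others, and the control and 2 day groups were wide. The gene rose by 1.22 ± 0.29 (2.33-fold, adjusted p = 0.00438). Its second cluster, with a lower mean, had a log2 fold change of 0.17 (adjusted p = 0.745 over all clusters), so the 2 clusters of this gene disagree in size. Of 6 adipocyte genes fabp4a was the 1 that rose. Their mean log2 signal was 5.54 to 5.66 at the end of treatment against 5.17 to 5.51 in control. This mean includes fabp4a itself, so it is not a separate measure of fat cells. Macrophage genes rose in the same comparison, and their part in the fabp4a value was not tested.

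The gene fabp10b, a copy of the liver-type binding protein gene of fish, was lowest at the end of treatment. Log2 signals of fabp10b were 6.83, 7.61 and 7.18 in control fish, 5.63, 5.84 and 6.45 at the end of treatment, 7.37, 6.98 and 7.05 at 2 days, 6.88, 7.28 and 7.44 at 5 days and 6.90, 7.18 and 6.86 at 9 days. The end-of-treatment arrays were the 3 lowest. The fall was 1.23 ± 0.21 in size (log2 fold change -1.23, 2.35-fold, adjusted p = 0.000368). Liver genes, of which 5 of 7 listed were measured, were near the bottom of the scale on every array. Their mean log2 signals were 3.00 to 3.28 in control against 3.03 to 3.07 at the end of treatment, where 1 of the 5 fell. Any part of liver tissue in the fabp10b value was not tested. The other 7 binding protein genes, fabp3 included, had uncalled values between -0.32 and 0.27. All of these but fabp3 had low mean log2 signals, from 3.09 (fabp4b) to 3.89 (fabp6), so the lack of a call says little about them.

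Acyl-CoA synthetases, which trap fatty acids in the cell by joining them to coenzyme A, included 2 genes that fell and 1 that rose among 10. The gene acsl1b is a copy of ACSL1, the synthetase that serves oxidation in the mammalian heart. Log2 signals of acsl1b were 12.31, 12.19 and 12.41 in control fish, 11.70, 12 and 11.61 at the end of treatment, 12.25, 11.85 and 11.81 at 2 days, 11.82, 11.62 and 12.05 at 5 days and 11.94, 11.92 and 11.87 at 9 days. All control arrays lay above the end-of-treatment arrays, and 1 of the 2 day arrays reached the control range. It fell by 0.53 ± 0.12 (1.45-fold, adjusted p = 0.00392), while its duplicate acsl1a was at -0.07 ± 0.08 (adjusted p = 0.58).

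The copies of ACSL4, a synthetase with a preference for arachidonic acid in mammals, parted. Log2 signals of acsl4a were 7.41, 7.28 and 7.19 in control fish, 6.76, 6.44 and 6.58 at the end of treatment, 7.77, 7.32 and 7.29 at 2 days, 7.32, 8.12 and 7.58 at 5 days and 7.19, 7.05 and 7.31 at 9 days. Those of acsl4b were 4.82, 4.78 and 5.08 in control fish, 5.45, 5.39 and 6.05 at the end of treatment, 5.45, 5.34 and 5.01 at 2 days, 5.10, 5.43 and 5.18 at 5 days and 5.16, 5.43 and 5.59 at 9 days. The end-of-treatment arrays of acsl4a were the 3 lowest of the 15, whereas those of acsl4b lay above all control arrays and overlapped the recovery groups. At the end of treatment acsl4a fell by 0.70 ± 0.17 (1.62-fold, adjusted p = 0.00601) and acsl4b rose by 0.74 ± 0.18 (1.67-fold, adjusted p = 0.00586).

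Unequal change of duplicates was tested on the difference itself, over all 2470 pairs of genes whose symbols differ only in a final a or b, which need not all be duplicates (etfa and etfb, for example, encode the 2 subunits of 1 protein). Of the 12 pairs among the fatty acid genes 3 changed unequally at the end of treatment, or 25.0% against 23.8% of all pairs, so such pairs were about as frequent here as elsewhere. The log2 fold change of acsl4a minus that of acsl4b was -1.44 ± 0.21 (limma, adjusted p = 7.78e-05). For fabp4a and fabp4b, which were at 1.22 and -0.22, it was 1.45 ± 0.29 (adjusted p = 0.00131). This value is of limited weight, since fabp4b, with a mean log2 signal of 3.09, was near the bottom of the scale, and since the second fabp4a cluster was at 0.17. For acsl1a and acsl1b it was 0.46 ± 0.16 (adjusted p = 0.0368), and this call was lost without control replicate 1 or 3 or end of treatment replicate 1 or 3 (adjusted p = 0.0925 to 0.156) and without an intensity trend in the variance (0.079). The copies of the trifunctional protein gene, hadhaa and hadhab, differed in log2 fold change by 0.18 ± 0.10 (adjusted p = 0.256).

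Thioesterases, which release free fatty acids from coenzyme A, were mostly uncalled: 2 of 16 fell at the end of treatment and none rose. Log2 signals of acot11b were 8.27, 8.23 and 7.98 in control fish, 6.96, 7.39 and 7.33 at the end of treatment, 7.83, 7.77 and 7.48 at 2 days, 7.67, 8.03 and 7.81 at 5 days and 7.87, 8.32 and 7.81 at 9 days. Its end-of-treatment arrays lay below all others, the 2 day mean was midway (0.47 below control and 0.47 above the end of treatment), and the 5 and 9 day means lay nearer to control. The gene, whose product in mice is induced by cold in brown fat, fell by 0.93 ± 0.15 (1.91-fold, adjusted p = 0.0002). The call of acot7, at -0.34 ± 0.12 (adjusted p = 0.0476), was lost when any 1 of 8 of the 15 arrays was left out, with the highest adjusted p (0.155) without end of treatment replicate 2. Several thioesterase genes are neighbours in the reference annotation (acot14, acot16, acot17 and acot18, also acot20 with acot21 and acot9.1 with acot9.2). Probe sequences were not used here, so shared signal between such copies was not tested.

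**Figure D3:**
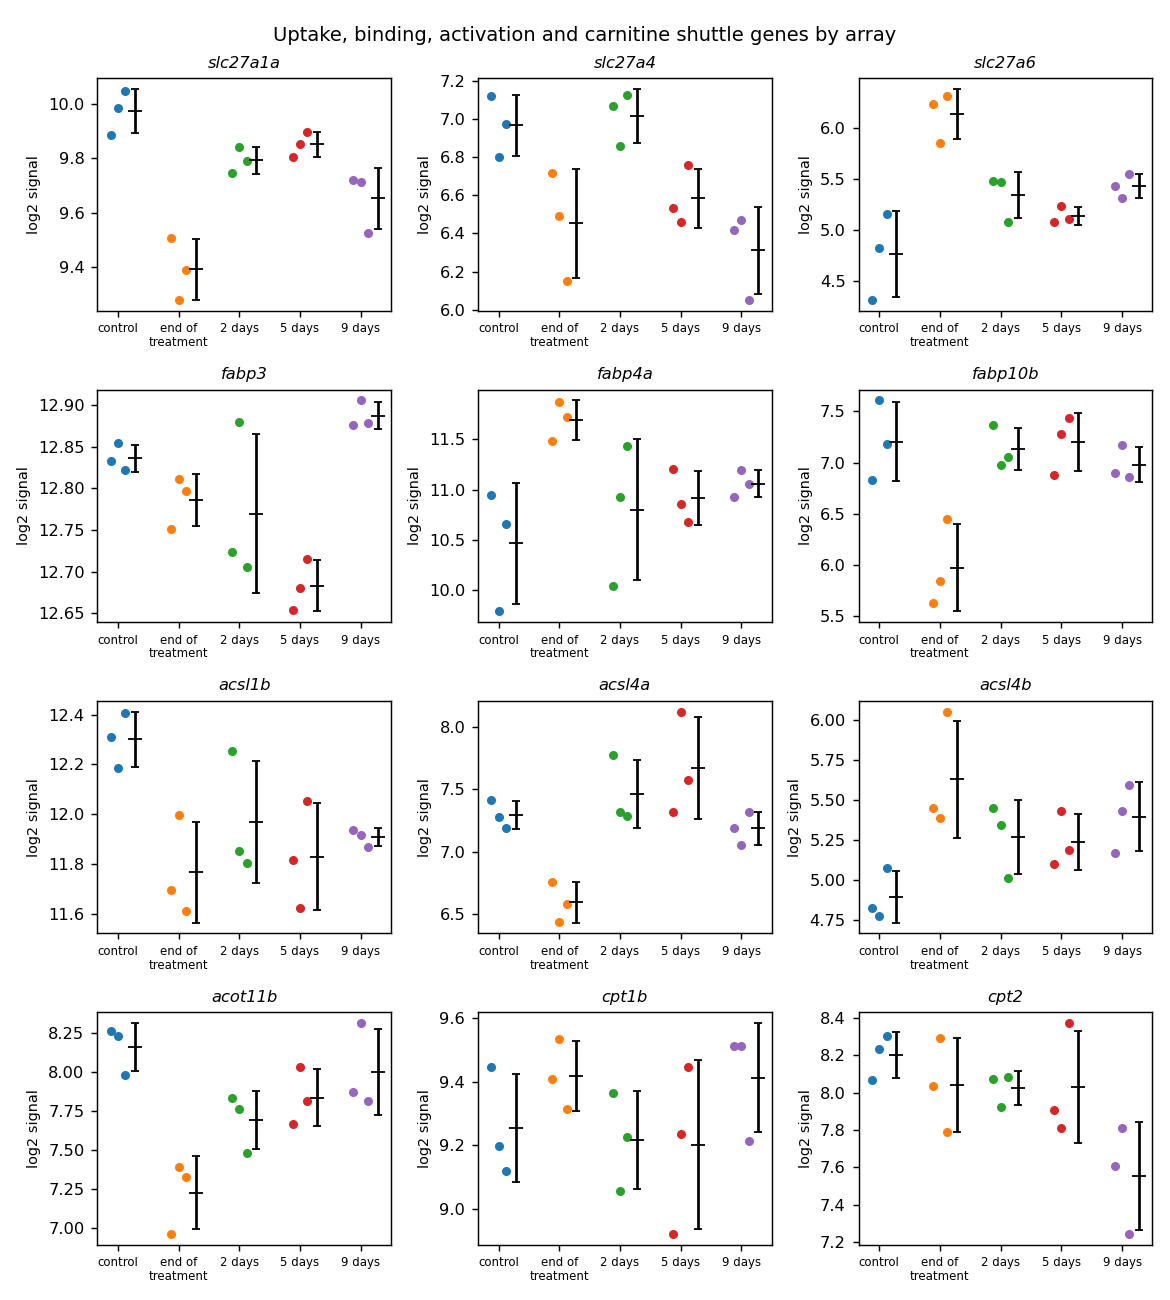
Log2 signal (vertical axes, each gene on its own scale) of 12 genes on every array, by group. They are genes of uptake, binding, activation and the carnitine shuttle and the thioesterase gene acot11b. Points are arrays and black bars the mean ± SD (n = 3). The end-of-treatment arrays are lowest for slc27a1a (9.28 to 9.51), fabp10b, acsl4a and acot11b and highest for slc27a6 (5.86 to 6.32) and fabp4a.

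The carnitine shuttle was not called at the end of treatment in any of its 5 genes. Carnitine palmitoyltransferase 1 is the step at which entry of long chains into mitochondria is controlled, and its muscle form is encoded by cpt1b. Log2 signals of cpt1b were 9.45, 9.2 and 9.12 in control fish, 9.41, 9.53 and 9.31 at the end of treatment, 9.36, 9.06 and 9.23 at 2 days, 8.92, 9.24 and 9.45 at 5 days and 9.51, 9.51 and 9.21 at 9 days. The groups overlapped. Its difference at the end of treatment was 0.16 ± 0.13, with a 95% interval from -0.11 to 0.44 (adjusted p = 0.43). The liver-type genes cpt1aa, cpt1ab and cpt1a2b were at -0.36, -0.11 and 0.13, with intervals of -0.69 to -0.03, -0.46 to 0.24 and -0.28 to 0.54. The inner membrane enzyme gene cpt2 was at -0.16 (interval -0.50 to 0.18).

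Of the 8 acyl-CoA dehydrogenase genes 4 fell at the end of treatment and none rose. That share was 50%, beside 9.6% of all genes and 63.6% of the 11 cardiomyocyte genes. The very-long-, long-, medium- and short-chain enzymes of this family open each cycle of beta-oxidation and differ in the chain length they accept. The count is of the gene family, which is wider and also holds acadsb, acad8, acad9 and acad11. Log2 signals of acadl, the long-chain enzyme gene, were 9.63, 9.68 and 9.81 in control fish, 9.02, 9.26 and 8.91 at the end of treatment, 9.33, 9.24 and 9.02 at 2 days, 9.17, 9.46 and 9.81 at 5 days and 9.12, 9.66 and 9.12 at 9 days. End-of-treatment and 2 day arrays lay below the control range, and 1 array each of 5 and 9 days reached it. The gene fell by 0.64 ± 0.16 (1.56-fold, adjusted p = 0.00577).

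The medium-chain gene acadm had log2 signals of 11.20, 11.30 and 11.31 in control fish, 10.88, 11.05 and 10.97 at the end of treatment, 11.03, 11.10 and 11.01 at 2 days, 10.92, 11.02 and 11.20 at 5 days and 11.14, 11.31 and 11.14 at 9 days. It was below control on all end-of-treatment and 2 day arrays and overlapped control at 5 and 9 days. It fell by 0.30 ± 0.08 (1.24-fold, adjusted p = 0.00676), and acadsb, of short branched chains, fell by a like amount (0.30 ± 0.08, adjusted p = 0.0109). The very-long-chain gene acadvl, at 12.39, 12.49 and 12.50 in control against 12.18 on each end-of-treatment array, fell by 0.28 ± 0.08 (adjusted p = 0.0208). This last call was lost without control replicate 2 or 3 or any single end-of-treatment array (adjusted p = 0.051 to 0.0706). The short-chain gene acads was not called, at 0.22 ± 0.14, nor were acad8, acad9 and acad11.

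At the steps that follow, 1 of 4 genes fell, hadhab, a copy of the gene of the trifunctional protein's alpha subunit, and none rose. Log2 signals of hadhab were 10.28, 10.33 and 10.35 in control fish, 9.83, 9.90 and 9.82 at the end of treatment, 10.07, 9.95 and 9.89 at 2 days, 9.98, 9.75 and 10.25 at 5 days and 9.82, 10.01 and 9.71 at 9 days. Every array of the treated groups lay below the 3 control arrays. It fell by 0.47 ± 0.10 (1.39-fold, adjusted p = 0.00285), while hadhaa was at -0.30 ± 0.12 (adjusted p = 0.0818). The soluble hydroxyacyl-CoA dehydrogenase is encoded by hadh. Log2 signals of hadh were 10.44, 10.39 and 10.49 in control fish, 10.61, 10.87 and 10.76 at the end of treatment, 10.43, 10.34 and 10.39 at 2 days, 10.18, 10.19 and 10.53 at 5 days and 10.13, 10.50 and 10.10 at 9 days. The end-of-treatment arrays of hadh were the highest of the 15, yet the difference from control, 0.30 ± 0.11, was not called (adjusted p = 0.0528). The short-chain hydratase gene echs1 was at -0.11.

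Electron transfer flavoprotein takes the electrons of the acyl-CoA dehydrogenases. Its subunits are encoded by etfa and etfb, and it hands the electrons on through the enzyme encoded by etfdh. None of these 3 was called at the end of treatment, with log2 fold changes of 0.16, -0.10 and 0.15. The methyltransferase gene etfbkmt, whose product modifies the beta subunit in mammals, fell by 0.73 ± 0.18 (1.66-fold, adjusted p = 0.00645). Log2 signals of etfbkmt were 6.81, 6.54 and 6.33 in control fish, 6.13, 5.65 and 5.70 at the end of treatment, 5.92, 6.38 and 6.0 at 2 days, 6.24, 6.52 and 6.23 at 5 days and 5.72, 6.33 and 6.14 at 9 days. Control and end-of-treatment arrays did not overlap, and 2 and 9 day arrays spanned the gap between them.

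Auxiliary enzymes such as those encoded by decr1, ech1, eci1 and eci2 let unsaturated chains enter the cycle. Of the 6 genes in this group, which also holds echdc1 and echdc2, 2 fell. The isomerase gene eci1 fell by 0.44 ± 0.11 (log2 signals of 9.67, 9.43 and 9.75 in control against 9.11, 9.29 and 9.14 at the end of treatment, adjusted p = 0.0093), a call lost without control replicate 3 (adjusted p = 0.0503). The mitochondrial reductase gene decr1 fell by 0.32 ± 0.11 (adjusted p = 0.0447), which did not hold when any 1 of 9 arrays was left out, with the highest adjusted p (0.206) without end of treatment replicate 3. The peroxisomal counterpart decr2 rose. Log2 signals of decr2 were 5.68, 5.82 and 5.94 in control fish, 6.45, 6.16 and 6.48 at the end of treatment, 6.18, 5.95 and 5.98 at 2 days, 6.0, 6.15 and 6.20 at 5 days and 5.73, 5.47 and 5.63 at 9 days. The 9 day arrays lay in or below the control range, and the end-of-treatment arrays above it. The rise was 0.55 ± 0.12 (1.47-fold, adjusted p = 0.0029), and the other 3 peroxisomal genes were uncalled, among them ehhadh, the bifunctional enzyme gene, at 0.38 ± 0.14 (adjusted p = 0.0608).

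**Figure D4:**
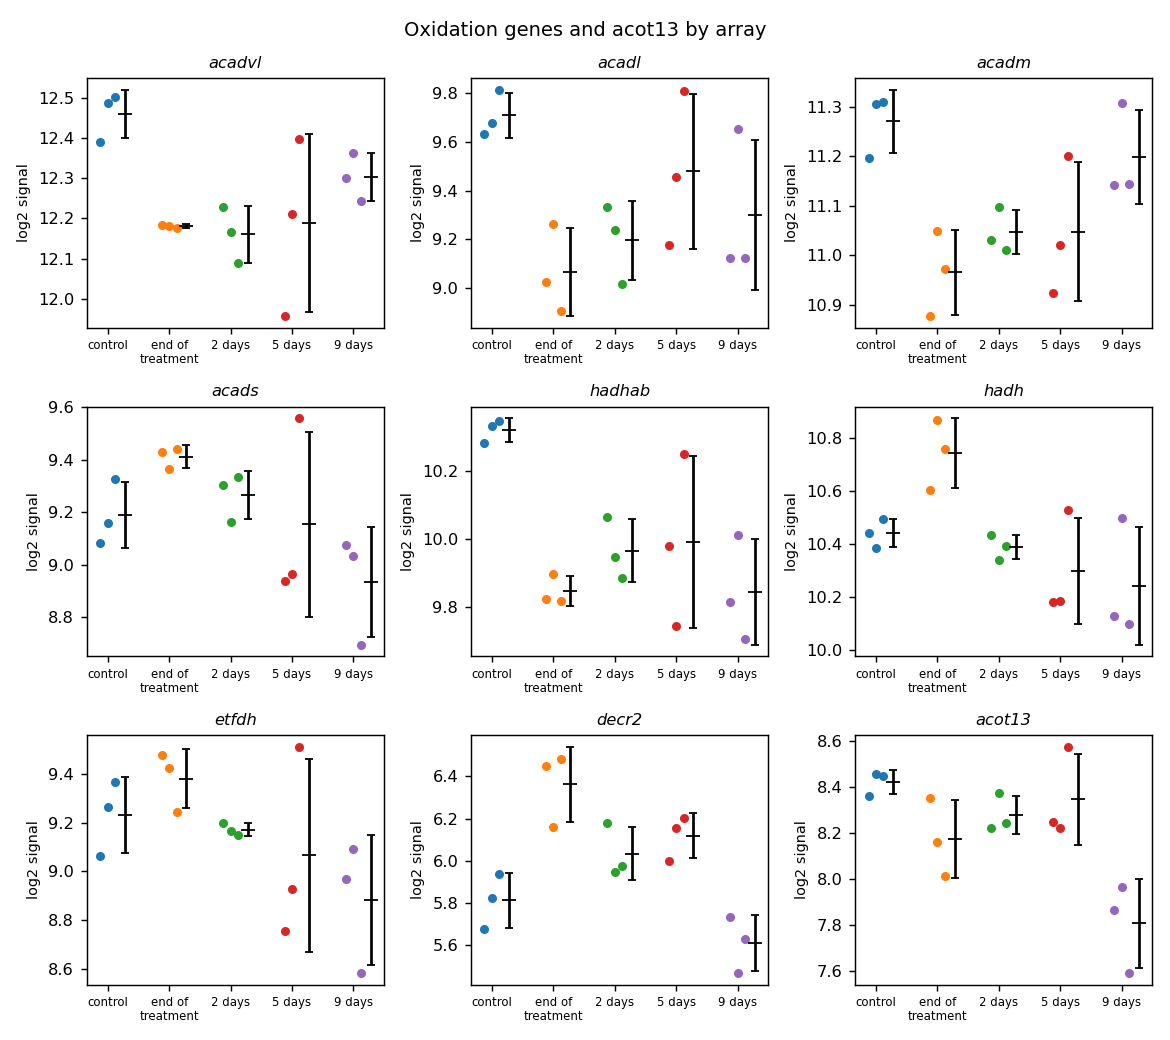
Log2 signal (vertical axes, each gene on its own scale) of 8 oxidation genes and the thioesterase gene acot13 on every array, by group, with mean ± SD (black, n = 3). Control arrays lie above the end-of-treatment arrays for acadvl, acadl, acadm and hadhab (10.28 to 10.35 against 9.82 to 9.90), and acot13 is lowest at 9 days (7.59 to 7.96).

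Genes outside the symbol rule that supply or control fatty acid use, or compete with it, were read as 4 lists. The lists were chosen with earlier results of these data known. Their shares beside those of all genes therefore describe the lists only and are no test of them. Of 13 genes of lipid release and entry 3 rose and 2 fell at the end of treatment, with a median log2 fold change of 0.01, as for all genes. Lipoprotein lipase, which frees fatty acids from circulating triglycerides, is encoded by lpla. Log2 signals of lpla were 10.85, 10.42 and 10.77 in control fish, 9.03, 9.33 and 9.42 at the end of treatment, 10.44, 10.58 and 10.02 at 2 days, 10.48, 10.35 and 10.21 at 5 days and 10.74, 11.00 and 10.99 at 9 days. Its end-of-treatment arrays lay far below the others, and it fell by 1.42 ± 0.14 (adjusted p = 2.07e-06). Its protein inhibitor's gene angptl4 rose by 2.19 ± 0.36 (adjusted p = 0.000248), and vldlr, a receptor gene for triglyceride-rich lipoproteins, rose by 1.61 ± 0.16 (adjusted p = 2.05e-06). The fatty acid translocase gene cd36 rose by 0.69 ± 0.18 (adjusted p = 0.00975), a call lost without end of treatment replicate 1 (0.0637).

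The list of carnitine and matrix steps also holds genes of ketone bodies, malonyl-CoA, uncoupling proteins and pyruvate dehydrogenase kinases. In it 7 of 20 genes rose (35%, beside 14.6% of all genes) and 3 fell (15%, beside 9.6%), with a median of 0.06. Those that rose were bdh1, pdk2a, pdk2b, ucp2, ucp3, mlycd and crot, and those that fell were acaca, acacb and pdk4. The rest, among them slc25a20, crata, cratb, acaa1, acaa2, acat1 and hsd17b10, were not called at the end of treatment. The ketone body enzyme gene bdh1, at 7.39, 7.66 and 7.44 in control against 9.14, 9.12 and 9.18 after treatment, rose by 1.66 ± 0.08 (adjusted p = 2.85e-09). The pyruvate dehydrogenase kinase genes pdk2a and pdk2b, whose products restrain the use of glucose carbon in mitochondria, rose by 1.05 ± 0.10 and 3.00 ± 0.35. Another kinase gene of the list, pdk4, named after its values were seen, fell by 0.35 ± 0.08 (adjusted p = 0.00334), a call kept with each array left out. Acetyl-CoA carboxylase makes malonyl-CoA, the inhibitor of carnitine palmitoyltransferase 1, and acaca fell by 0.95 ± 0.10 (adjusted p = 2.23e-06). Looked up after the values were seen, the second carboxylase gene acacb fell by 0.65 ± 0.08 (adjusted p = 2.24e-05). Likewise mlycd, which encodes the enzyme that removes malonyl-CoA, rose by 0.87 ± 0.29 (adjusted p = 0.0358). The rise of mlycd was lost without control replicate 2 (adjusted p = 0.177), end of treatment replicate 1 (0.0952) or end of treatment replicate 2 (0.161). For both carboxylase genes all end-of-treatment arrays lay below all other arrays.

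Among 18 peroxisome genes 4 fell (22.2%, beside 9.6% of all genes) and 1 rose (5.56%, beside 14.6%), with a median of -0.12. The transporter gene abcd2, which brings very long acyl-CoA into peroxisomes, fell by 1.25 ± 0.12, and pex19, a gene of membrane protein import, fell by 0.73 ± 0.09. The carrier protein gene scp2a rose by 0.40 ± 0.10, and pex11g, of peroxisome division, was at 0.39 ± 0.14 (adjusted p = 0.0541). Among 20 regulator genes 6 fell (30%, beside 9.6% of all genes) and none rose, with a median of -0.18. The factor gene klf15, which in mice promotes lipid use in the heart, fell by 1.4 ± 0.12 (adjusted p = 5.14e-07), the coactivator gene ppargc1b fell by 0.49 ± 0.08 and the hypoxia factor gene epas1b fell by 0.46 ± 0.07. The receptor gene rxrbb was at -0.20 ± 0.07 (adjusted p = 0.0528). Chosen after their values were seen, pparab, a copy of the fatty acid receptor gene PPARA, fell by 0.88 ± 0.14 (adjusted p = 0.000133), and ppargc1a fell by 0.68 ± 0.13 (adjusted p = 0.00091).

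**Figure D5:**
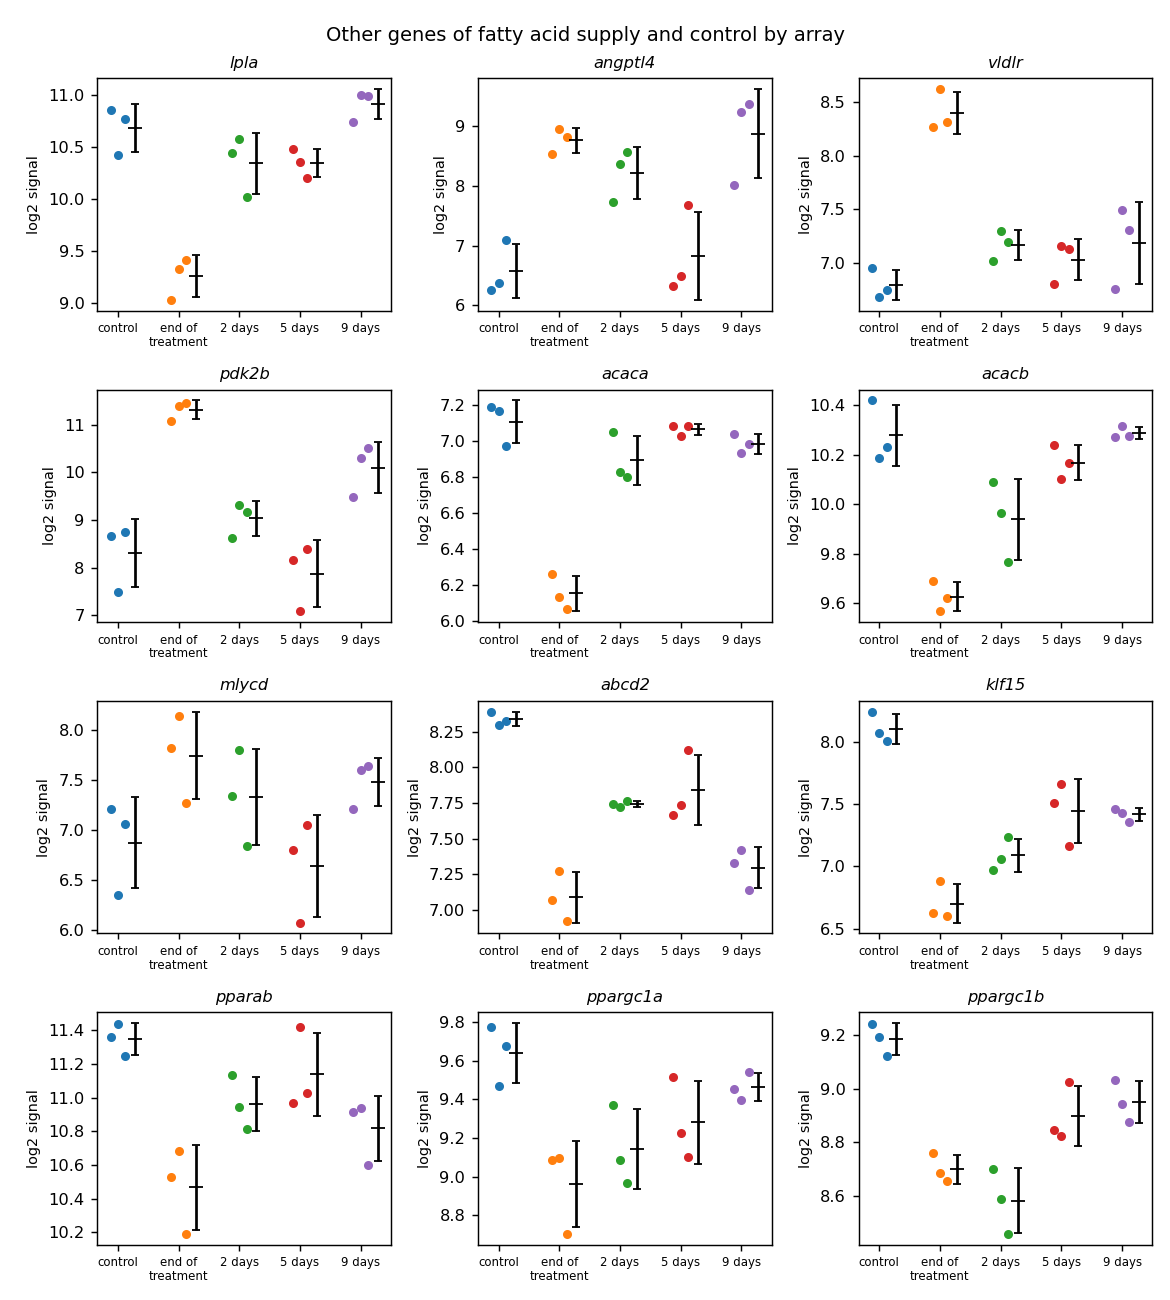
Log2 signal (vertical axes, each gene on its own scale) of 12 genes outside the symbol rule on every array, by group, with mean ± SD (black, n = 3). The end-of-treatment arrays are the lowest for lpla (9.03 to 9.42), acaca and acacb and the highest for pdk2b (11.08 to 11.45), and pparab, ppargc1a, acacb and mlycd were picked after their values were seen.

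Against control, few of the 74 genes were called at 2 and 5 days. Their median log2 fold change was -0.11 at both times, beside 0.01 and 0.02 for all genes. Averaged over the 74 genes, control arrays differed from the control mean by -0.01, -0.04 and 0.05. The 2 day arrays lay below these, at -0.06, -0.08 and -0.10, but the 5 day arrays overlapped them, at -0.17, -0.06 and 0.03. Values above 0 were found for 25 of the 74 genes at 2 days and 22 at 5 days. At 2 days 3 fell and 1 rose, or 5.41% against 11.8% of all genes (7.62% higher and 4.15% lower). The genes that fell were acadl by 0.51 ± 0.16, hadhab by 0.35 ± 0.10 and acadvl by 0.30 ± 0.08, and acsbg2, a synthetase gene of the bubblegum family, rose by 0.32 ± 0.08. Each of these 4 calls was lost with some array left out, with adjusted p up to 0.172 for acadl (without 2 days replicate 3), 0.135 for hadhab (without 2 days replicate 3), 0.112 for acadvl (without 2 days replicate 3) and 0.0621 for acsbg2 (without control replicate 1). The count was 1 without control replicate 1 or 2, and 2 without control replicate 3 or 2 days replicate 2 or 3.

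At 5 days 2 genes fell and 1 rose, 4.05% against 6.37% of all genes (3.9% higher and 2.47% lower). Again acsbg2 was higher: log2 signals of acsbg2 were 8.22, 8.23 and 8.40 in control fish, 8.48, 8.45 and 8.42 at the end of treatment, 8.60, 8.61 and 8.60 at 2 days, 8.53, 8.74 and 8.63 at 5 days and 8.25, 8.12 and 8.11 at 9 days. The 2 and 5 day arrays lay above all others, and the rise at 5 days was 0.35 ± 0.08 (1.27-fold, adjusted p = 0.0132). The genes that fell were acsl1b by 0.47 ± 0.12 and acox3, a peroxisomal oxidase gene, by 0.32 ± 0.09. These calls were lost with some array left out, with adjusted p up to 0.0702 for acsbg2 and 0.143 for acsl1b (both without 5 days replicate 2) and 0.146 for acox3 (without control replicate 3). The second acox3 cluster, with a mean log2 signal of 6.79 against 6.97, was at -0.16 at 5 days. Its adjusted p over all clusters was 0.516, and that of the cluster read here was 0.0842. The count was 0 without control replicate 1 or 5 days replicate 2, 1 without control replicate 2 or 3 or 5 days replicate 1, and 6 without 5 days replicate 3. That array stood above the other arrays of its group for acadl (9.81 against 9.17 and 9.46), acadvl (12.40 against 11.96 and 12.21) and hadhab (10.25 against 9.98 and 9.75). Over the 8 dehydrogenase genes its mean difference from the control mean was 0.06, against -0.34 and -0.17 on the other 5 day arrays.

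At 9 days 7 genes fell and 1 rose against control, 10.8% called against 7.54% of all genes, with 9.46% lower against 3.3%, and 1.35% higher against 4.24%. The member median was -0.16, beside 0.01 for all genes. The thioesterase gene acot13, whose product lies at mitochondria in mammals, gave the 1 call that remained with every array left out in turn. Log2 signals of acot13 were 8.36, 8.46 and 8.45 in control fish, 8.35, 8.16 and 8.01 at the end of treatment, 8.22, 8.38 and 8.24 at 2 days, 8.25, 8.22 and 8.58 at 5 days and 7.86, 7.96 and 7.59 at 9 days. The 9 day arrays were the 3 lowest of the 15. It fell by 0.62 ± 0.12 (1.53-fold, adjusted p = 0.00422).

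Also at 9 days, cpt2, the enzyme gene that returns acyl groups to coenzyme A inside mitochondria, was low. Log2 signals of cpt2 were 8.07, 8.24 and 8.31 in control fish, 8.04, 8.29 and 7.79 at the end of treatment, 8.07, 7.92 and 8.08 at 2 days, 7.91, 7.81 and 8.37 at 5 days and 7.61, 7.81 and 7.24 at 9 days. The 9 day arrays lay below all control arrays and reached into the end-of-treatment range. It fell by 0.65 ± 0.16 (1.57-fold, adjusted p = 0.0208), a call lost without control replicate 2 (0.0635), control replicate 3 (0.0716) or 9 days replicate 3 (0.107).

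The other falls at 9 days were slc27a4 by 0.65 ± 0.15, ACOXL, a relative of the peroxisomal oxidase genes, by 0.62 ± 0.14, hadhab by 0.48 ± 0.10, acad9, a gene of complex I assembly in mammals, by 0.44 ± 0.13 and slc27a1a by 0.32 ± 0.08. The rise was that of slc27a6, by 0.67 ± 0.19 (1.59-fold, adjusted p = 0.0364). Each of these 6 calls was lost with some array left out. The highest adjusted p was 0.0754 for slc27a4, 0.0592 for hadhab, 0.212 for acad9 and 0.0927 for slc27a1a, all without 9 days replicate 3, and 0.0695 for ACOXL (without control replicate 2) and 0.166 for slc27a6 (without control replicate 1). The count of 8 was 1 without 9 days replicate 3, 4, 3 and 5 without control replicates 1, 2 and 3, and 14 where the 33.3% of genes with the lowest signal were left out. In the pathway lists at 9 days, pdk2a was 1.08 ± 0.10 above control and angptl4 was 2.30 ± 0.36 above (limma, adjusted p = 5.21e-05 and 0.00145), abcd2 was 1.04 ± 0.12 below (log2 fold change -1.04, adjusted p = 0.000157) and klf15 fell by 0.69 ± 0.12 (0.0032).

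Set against the end of treatment, 5 of the 74 genes were higher and 1 lower at 2 days (8.11% called, beside 7.98% of all genes, of which 3.52% higher and 4.45% lower), and 4 were higher and 2 lower at 5 days (8.11%, beside 12.3%, of which 4.34% higher and 8.01% lower). The gene fabp10b rose by 1.16 ± 0.21 at 2 days and 1.23 ± 0.21 at 5 days (2.23-fold and 2.34-fold, adjusted p = 0.00241 and 0.001). Over the same intervals acsl4a rose by 0.87 ± 0.17 and 1.08 ± 0.17 (adjusted p = 0.00419 and 0.000513), and slc27a1a rose by 0.40 ± 0.08 and 0.46 ± 0.08 (0.00334 and 0.000759). The gene slc27a6 fell by 0.79 ± 0.19 at 2 days and by 1.00 ± 0.19 at 5 days (0.0126 and 0.00167). All of these calls remained with each array left out, except that of slc27a6 at 2 days, lost without end of treatment replicate 1 or 3 or 2 days replicate 3 (adjusted p = 0.0533, 0.0614 and 0.0626).

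The other calls of these times were less firm. At 2 days slc27a4 rose by 0.56 ± 0.15, a call lost without end of treatment replicate 2 or 3 or 2 days replicate 1 or 3 (adjusted p up to 0.14), and the termination factor gene etf1b rose by 0.33 ± 0.09, lost without end of treatment replicate 1 or 2 or 2 days replicate 1 or 3 (up to 0.117). At 5 days acot11b rose by 0.61 ± 0.15, lost without end of treatment replicate 1 or 5 days replicate 2 (up to 0.0702). There hadh fell by 0.45 ± 0.11, lost without end of treatment replicate 2 or 5 days replicate 1 or 2 (up to 0.064). The count at 5 days was 10 without 5 days replicate 1.

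Among the 12 pairs with symbols in a and b, 2 changed unequally from the end of treatment to 2 days (16.7%, beside 8.83% of all pairs), 3 by 5 days (25%, beside 14.3%) and 2 by 9 days (16.7%, beside 19%). The change of acsl4a minus that of acsl4b was 1.23 at 2 days, 1.47 at 5 days and 0.83 at 9 days (limma, adjusted p = 0.001, 0.000151 and 0.00932), and of these calls the 9 day one was lost without end of treatment replicate 3 (0.0598). For fabp4a and fabp4b, with the same limit as above, the values were -1.10, -1.27 and -1.17. Their 2 day call was lost without end of treatment replicate 2 (adjusted p = 0.121) or 3 (0.0745) or 2 days replicate 1 (0.142), and their 9 day call without end of treatment replicate 2 (0.0542). The remaining pair at 5 days, cpt1aa and cpt1ab, differed by 0.67 (adjusted p = 0.0469), a call lost without any 1 of 12 of the 15 arrays (up to 0.261, without end of treatment replicate 2). Against control 2 pairs were called at 2 days (16.7%, beside 9.68%), neither of them duplicates of a fatty acid gene: etf1a with etf1b, and the subunit genes etfa with etfb. The call of etf1a with etf1b was lost when any 1 array of control, end of treatment, 2 days or 5 days was left out. Its highest adjusted p was 0.151, without 2 days replicate 1. The call of etfa with etfb was lost without control replicate 1 (adjusted p = 0.0834), control replicate 2 (0.0742) or 2 days replicate 1 (0.103). No pair was called at 5 or 9 days against control (3.48% and 4.98% of all pairs).

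By 9 days 7 genes were higher and 9 lower than at the end of treatment, 21.6% called against 19% of all genes, a share near the background, as were 9.46% higher against 7.38% and 12.2% lower against 11.6%. Of the genes that had fallen at the end of treatment, fabp10b was higher by 1.01 ± 0.21 (2.01-fold, adjusted p = 0.00282) and acot11b by 0.77 ± 0.15 (1.71-fold, adjusted p = 0.00152). Both calls remained whichever array was left out. Also higher were acsl4a (by 0.59 ± 0.17), fabp4b (0.54 ± 0.16), acadsb (0.31 ± 0.08), slc27a1a (0.26 ± 0.08) and acadm (0.23 ± 0.08), each a call lost with some array left out. Their highest adjusted p was 0.0947, 0.129 and 0.127 for acsl4a, fabp4b and slc27a1a without end of treatment replicate 2, and 0.0549 and 0.18 for acadsb and acadm without 9 days replicate 2. Of these genes fabp4b had not been called at the end of treatment against control. Its mean log2 signal of 3.09 was near the bottom of the scale.

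Among the genes lower at 9 days than at the end of treatment, decr2 fell by 0.75 ± 0.12 (1.69-fold, adjusted p = 0.000315) and hadh by 0.50 ± 0.11 (1.42-fold, adjusted p = 0.00334), and both calls remained with each array left out. The short-chain dehydrogenase gene acads, at 9.43, 9.36 and 9.44 at the end of treatment and 9.07, 9.04 and 8.70 at 9 days, fell by 0.48 ± 0.14. The flavoprotein dehydrogenase gene etfdh, at 9.48, 9.43 and 9.24 and then 8.97, 9.09 and 8.58, fell by 0.50 ± 0.16. Neither gene had been called at the end of treatment. The remaining falls were slc27a6 (by 0.71 ± 0.19), cpt2 (by 0.49 ± 0.16), ech1, a dienoyl-CoA isomerase gene (by 0.40 ± 0.13), acot13 (by 0.37 ± 0.12) and acsbg2 (by 0.29 ± 0.08).

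These 7 calls were lost with some array left out, with the highest adjusted p at 0.111 for acads, 0.174 for etfdh, 0.201 for cpt2 and 0.166 for acot13 (all without 9 days replicate 3), 0.147 for ech1 (without end of treatment replicate 2), 0.0571 for slc27a6 (without end of treatment replicate 3) and 0.0543 for acsbg2 (without 9 days replicate 2). The count of 16 was 8 without 9 days replicate 1 or 3, 10 without end of treatment replicate 1 and 9 without end of treatment replicate 2. Of the pathway genes lpla rose by 1.65 ± 0.14 from the end of treatment to 9 days (adjusted p = 1.02e-06), acaca by 0.83 ± 0.10 (1.6e-05) and acacb by 0.66 ± 0.08 (3.3e-05). Both bdh1 and vldlr fell, by 1.05 ± 0.08 and 1.22 ± 0.16 (3.76e-07 and 5.38e-05), whereas pdk2a and angptl4 were at 0.03 ± 0.10 and 0.11 ± 0.36 and were not called (adjusted p = 0.91 and 0.897). Both had been lower in between: at 5 days pdk2a fell by 0.71 ± 0.10 and angptl4 by 1.94 ± 0.36 from the end of treatment (adjusted p = 0.000251 and 0.00175), and neither was called against control (0.34 and 0.25, adjusted p = 0.0713 and 0.773).

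Members called in no comparison were 43, and they included the 4 carnitine palmitoyltransferase 1 genes, fabp3, acsl1a, hadhaa, echs1, etfa and etfb. The uncalled thioesterase genes, 14 at the end of treatment, had log2 fold changes of -0.37 to 0.37 there, and the 7 uncalled synthetase genes -0.28 to 0.17. Some uncalled genes had low mean log2 signals, such as acot21 (2.17), acot22 (2.53), acsl5 (2.80), acsbg1 (3.08) and cpt1a2b (3.84). For such genes the lack of a call says little.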

How the data were processed

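Total RNA (250 ng per array) from 15 pools of 3 ventricles, named biological replicates in the labels, was biotin-labelled and hybridised. The deposited values are log2 signals that the authors made with RMA in the R package oligo, per the submitters' processing notes (the sources used here give no versions or probe set settings). RMA corrects background, equalises the arrays' distributions and summarises probes, so a shift common to most genes would be removed.

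An annotation table of the array named 20806 of 75212 clusters with 1 symbol (855 had several and 53551 none), giving 19260 genes. Left out were 6 clusters with several symbols of which 1 or more matched. Among them was a cluster with the symbols acsl6 and ACSL6, which differ in case only, so acsl6 is not among the 10 synthetase genes. Symbols of 72 members matched the RefSeq table of assembly GRCz12tu by gene ID, which served for names and neighbours only. Promoter and protein sequences were not used here.

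Group means were fitted over all 15 arrays with limma 3.58.1 in R 4.3.3 (moderated variance with an intensity trend, 2-sided), and p-values adjusted by Benjamini-Hochberg over all genes per comparison, threshold 0.05. An exact permutation of 3 against 3 arrays cannot go below 0.1. The fits were tested on simulated data. Python 3.11.15, pandas 2.3.3 and matplotlib 3.10.9 prepared tables and figures.

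The members and lists were chosen with earlier results of these data known. Named by rule were members past 0.05 in the F test or against control (up to 30, with at least 2 per role) and up to 4 genes per pathway list with the smallest F-test adjusted p; other names were picked with their values known. The settings varied were median centring, cyclic loess, no variance trend, a minimum of 1.5-fold, leaving out the 33.3% of genes with the lowest mean, the mean of a gene's clusters, every cluster, only the 6 arrays compared, a replicate block and each array left out. The labels do not say whether replicate numbers pair the samples, and no block was used in the main fit. Deviations of same-numbered arrays correlated at -0.16 to 0.10 over 30 pairs of arrays. Those of other arrays correlated at -0.12 to 0.14 over 60 pairs, so no deviation shared by number was seen.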

Additional observations from a re-analysis of the deposited data

How the results depend on the processing

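Over the 62 calls of the 74 genes in 7 comparisons, 26 remained with each array left out in turn. None changed direction under any alternative, but this outcome was largely fixed in advance. Dropping the variance trend, testing every cluster or fewer genes, a replicate block or only the 6 arrays leaves a gene's log2 fold change as it was. In nearly all calls the arrays of the 2 groups did not overlap, so leaving out 1 array could not turn the sign. Calls kept were 45 of 62 with no variance trend, 53 with arrays centred on their median, 58 with cyclic loess, 61 of 61 without the 33.3% of genes lowest in mean, 61 with the mean of a gene's clusters, 51 with only the 6 arrays compared and 35 when every transcript cluster was tested. The mean of clusters could alter few of these calls, since only 7 of the 74 genes have more than 1 cluster. Of the called genes with a second cluster, fabp4a kept its call under that setting and acox3 lost it. Counts of members moved as follows. The F test's 22 became 13 with no variance trend and 11 with every cluster. With at least 1.5-fold the counts were 8 of 19 at the end of treatment, 0, 0 and 5 at 2, 5 and 9 days against control (4, 3 and 8 otherwise), and 3 and 5 at 2 and 9 days against the end of treatment (6 and 16 otherwise). With no variance trend 2 and 5 days against control gave 1 each and 9 days against the end of treatment 10. Testing every cluster gave 1, 1 and 3 at 2, 5 and 9 days against control, and 3 and 7 at 2 and 9 days against the end of treatment. Centring gave 2 at 2 days against control. Leaving out those low genes gave 8 and 14 at 2 and 9 days against control, and using only the 6 arrays gave 1 and 5 at 5 and 9 days. The causes of these moves, other than fewer arrays, fewer genes or the fold minimum itself, were not tested.

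With 1 array left out at a time the counts ran from 14 to 29 for the F test, 16 to 22 for the end of treatment, 1 to 6, 0 to 6 and 1 to 10 for 2, 5 and 9 days against control, 4 to 9, 4 to 10 and 8 to 17 for 2, 5 and 9 days against the end of treatment, and 2 to 4 for pairs with unequal change at the end of treatment against control. With the replicate number as a block the counts were 17 for the end of treatment, 4, 2 and 6 at 2, 5 and 9 days against control, 7, 7 and 14 against the end of treatment, 19 for the F test and 4 for pairs at the end of treatment, and 54 of 62 calls were kept. Same-numbered arrays showed no shared deviation (median correlation of same-numbered deviations -0.01, of others 0.01), and whether the numbers pair the samples is not stated in the labels. No detection values were used here, so the signal over background that limits low genes is unknown.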
